A study of Mus musculus with 6 samples.

Results

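Serpins are a large family of proteins, most of which inhibit serine or cysteine proteases. The members described here are the rows of the deposited table whose gene symbol begins with Serpin, a clade letter from a to i and a digit, without Serpinh1, a collagen chaperone, and without symbols marked as pseudogenes. They number 32 of 17912 genes in the table. The mouse annotation used here (GENCODE release M21, GRCm38, the same assembly as mm10) lists 62 genes that fit the same rule, and 31 of the 32 members are protein coding in it. Serpina3h, the remaining member, is annotated there as a transcribed unprocessed pseudogene.

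Poly(A) RNA was sequenced from mouse cells labelled as embryonic stem cells (ESCs). The 3 tested libraries are clones with a short hairpin RNA against Exosc2, labelled EXOSC2_KD by genotype and numbered 5, 6 and 7. The 3 controls are labelled WT and numbered 1, 2 and 3. The series title relates EXOSC2, a subunit of the RNA-degrading exosome, to aging and cancer. The labels do not say whether the controls carried a control hairpin, whether clones and controls came from 1 parental line, or whether libraries of a group came from separate cultures. The p-values therefore measure the spread between these libraries, which may be technical, and a difference between the groups is not tied to Exosc2 alone.

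An inhibitory serpin carries an exposed loop that a protease cuts as if it were a substrate. The cut loop then folds into the body of the serpin and traps the protease in a covalent complex, so each molecule works once. Clade B serpins lack a classical secretion signal and act mainly inside the cell, where they hold lysosomal and granule proteases in check. Members of clades A, C, E, F, G and I are mostly secreted and act in blood, in matrix or at the cell surface, for instance on plasminogen activators, clotting factors and complement proteases. Some members, such as maspin and pigment epithelium-derived factor, have lost protease inhibition.

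Values below are read counts scaled between libraries by the authors with DESeq (scaled counts), and group values are mean ± SD over n = 3 libraries. Recovered reads numbered 24268430 to 26494985 in clones and 21107761 to 24633836 in controls. Log2 fold changes are clones over controls of log2(scaled count + 1), given with their SE, from limma fitted to all 15179 genes with a mean of at least 10, with Benjamini-Hochberg adjustment. Adding 1 makes the change of low genes look smaller. Exosc2 itself measured 1138, 997 and 981 in clones 5, 6 and 7, against 2457, 2473 and 1954 in controls 1, 2 and 3, so the clones held 45.3% of the control mean (log2 fold change -1.14 ± 0.13, adjusted p = 5.11e-05 by limma; exact two-sided permutation p = 0.1, the smallest that 3 against 3 allows). Of 12 pluripotency markers 11 were lower in clones and Pou5f1 was higher, against 38.3% lower and 35.2% higher of all tested genes. The ESC label may therefore not describe the clones.

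Most serpin reads of the clones came from clade B, the intracellular serpins. Its 18 members summed to 11226, 11048 and 11092 in clones 5, 6 and 7, against 3005, 2538 and 3788 in controls 1, 2 and 3. The groups did not overlap (ratio 3.58), and control 3 lay nearest the clones. Most of the clone sum came from Serpinb6a, Serpinb3a and Serpinb8. They averaged 6099, 2340 and 2014 in clones, against 2335, 0 and 44.5 in controls. Among 11 tested clade B members 4 rose and 4 fell (35.2% and 38.3% of all tested genes), so the sum does not describe the clade as a whole. The 7 clade A members summed to 296 ± 43.0 in clones and 301 ± 78.7 in controls. In bulk RNA, fewer cells of a type and less RNA per cell cannot be told apart.

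**Figure D1:**
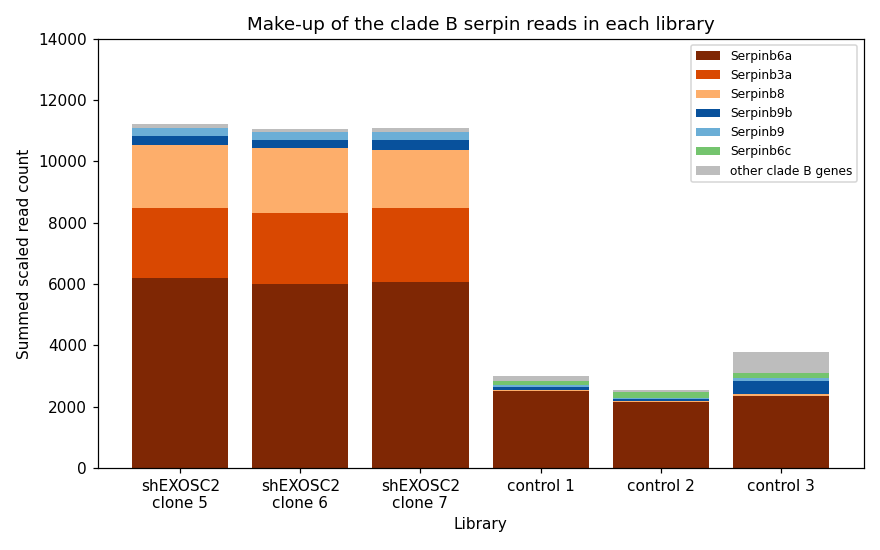
Summed scaled counts of the 18 clade B serpin genes (y axis) in each library (x axis), stacked by gene. Serpinb3a and Serpinb8 fill a visible part of each clone bar and little or none of the control bars, and Serpinb6a is the tallest part of every bar.

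Of the 32 members, 22 had a mean of at least 10 and were tested, and 10 were below that limit. In the clones 7 rose, 5 fell and 10 did not pass. The 12 called members are 54.5% of those tested, against 73.5% of all tested genes. Higher calls made up 31.8% of tested members against a background of 35.2%, and lower calls 22.7% against 38.3%. None of these shares is above its background, so the counts alone are no result about the family. Clone and control values did not overlap, with clones higher, for 7 tested members (31.8%, background 36.7%), and with clones lower for 5 (22.7%, background 40.6%). The median log2 fold change was 0.12 over tested members and -0.07 over all tested genes.

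**Figure D2:**
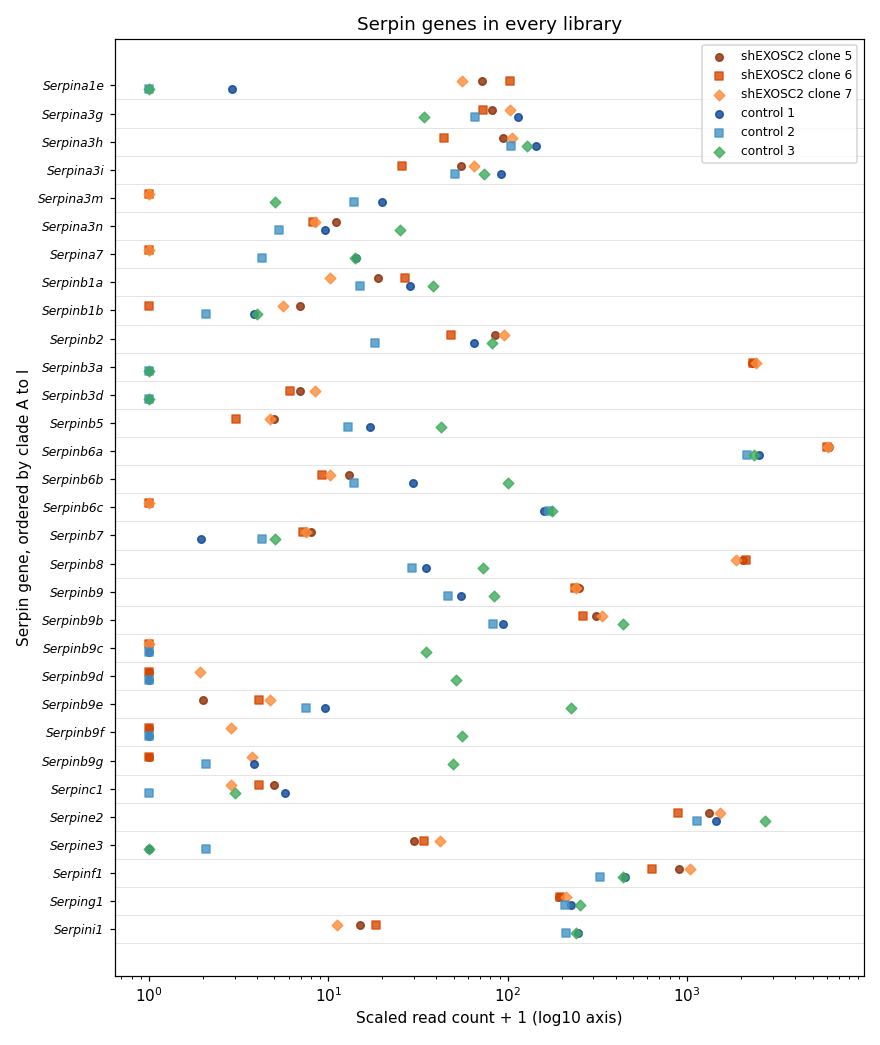
Scaled count + 1 (x axis, log10) of serpin genes (y axis, by clade) in the 3 clones (warm colours, upper points of a row) and the 3 controls (cool colours, lower points). Serpinb3a, Serpinb8, Serpina1e and Serpine3 lie far to the right in the clones, Serpinb6c and Serpini1 in the controls, and control 3 stands to the right of the other 5 libraries for Serpinb9c to Serpinb9g.

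Serpinb3a was among the most abundant serpin transcripts of the clones and had no read in any control. The gene (ENSMUSG00000044594.14, chromosome 1, positions 107045587 to 107052303, minus strand) is a mouse counterpart of the human squamous cell carcinoma antigens, cytosolic serpins of squamous epithelium that inhibit lysosomal cysteine proteases and chymotrypsin-like proteases. It measured 2283, 2321 and 2416 in clones 5, 6 and 7, and 0 in controls 1, 2 and 3. The clones averaged 2340 ± 68.5, and no control had a read. Against a floor of 3 reads per control library, the clones were at least 772-fold higher (limma adjusted p = 1.05e-08). Its neighbour and relative Serpinb3d, below the limit for testing, had 5.97, 5.14 and 7.38 in the clones and no read in the controls, at least 2.03-fold higher. A predicted gene between members of the same cluster, Gm8080, shares 9.80% of the 50-base words of Serpinb3a. It averaged 44.1 ± 4.59 in clones and 0 in controls, and 15.04% of Serpinb3a words occur in some other gene, so a small share of these reads could belong to either.

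The promoter stretch of Serpinb3a is printed because this gene had the largest rise. It lies at chr1:107052339-107052428 (RefSeq, GRCm38.p6, minus strand, printed 5′ to 3′), and the capitals mark a TATAAA motif that begins 65 bases before the annotated start.
Serpinb3a: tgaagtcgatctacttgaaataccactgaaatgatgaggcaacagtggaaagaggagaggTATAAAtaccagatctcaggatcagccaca
A window of 250 bases before to 50 bases after the start was found in RefSeq for 27 of the 32 members. TATAAA on either strand occurred in 6 of these 27 (Serpina7, Serpinb2, Serpinb3a, Serpinb3d, Serpinb6c and Serpinb7), and in 15.7% of all 27025 mouse genes with a window. The Serpinb3a window held 1 CpG, against a median of 7 over all windows. All motifs were chosen after the windows had been inspected, and a match describes letters only.

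Serpinb8, at the far end of the same cluster, also rose. Serpinb8 (ENSMUSG00000026315.13, chromosome 1, positions 107590006 to 107610484, plus strand) encodes a cytoplasmic serpin whose human counterpart inhibits the proprotein convertase furin. Its scaled counts were 2035, 2130 and 1877 in clones 5, 6 and 7, against 34.1, 28.1 and 71.3 in controls 1, 2 and 3. Every clone was far above every control, a 45.3-fold ratio of means (log2 fold change 5.58 ± 0.31, limma adjusted p = 6.93e-07). Only 0.165% of its 50-base words occur in another gene. Its promoter stretch, chr1:107589923-107590005 (plus strand), is printed with an AP-1 motif, TGANTCA, in capitals.
Serpinb8: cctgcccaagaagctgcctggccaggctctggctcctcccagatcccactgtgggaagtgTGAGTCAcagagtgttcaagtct
TGANTCA on either strand occurred in the windows of 4 of 27 members, Serpinb2, Serpinb5, Serpinb7 and Serpinb8, all in the chromosome 1 cluster, and in 8.97% of all genes with a window. These 4 genes did not move alike. Serpinb5 fell, Serpinb8 rose, Serpinb2 did not pass and Serpinb7 was not tested.

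The remaining genes of the chromosome 1 cluster were at low levels. Serpinb5 encodes maspin, a serpin without protease inhibition that is made by mammary and other epithelia. It measured 3.98, 2.05 and 3.69 in clones 5, 6 and 7, against 16.1, 11.9 and 41.2 in controls 1, 2 and 3, with control 3 the highest (log2 fold change -2.34 ± 0.48, limma adjusted p = 0.00192). Without control 3 its mean fell under the limit for testing. Serpinb2, plasminogen activator inhibitor 2, measured 83.6, 47.3 and 94.1 in the clones, against 63.4, 17.3 and 80.4 in the controls, overlapping ranges (log2 fold change 0.67 ± 0.55, limma adjusted p = 0.289). Serpinb7, megsin, a serpin of kidney mesangium and epidermis, had 6.96, 6.16 and 6.46 in the clones and 0.947, 3.24 and 4.02 in the controls.

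Around this cluster the nearest 3 genes of the table on each side were described in the same fit. To the left, Bcl2, an inhibitor of apoptosis, rose to 1373 ± 43.5 in clones against 49.9 ± 22.2 in controls, while Kdsr and Vps4b did not pass (log2 fold changes 0.30 and -0.13). To the right, Cdh7 averaged 0 in clones and 9.68 in controls and was not tested, Dsel rose (log2 fold change 0.91, limma adjusted p = 0.000389) and 9330185C12Rik fell to 0 in clones against 24.7 ± 4.44 in controls. The flanking genes thus included higher, lower and uncalled genes. Those on the right are not close neighbours. The cluster ends at 107610484, and Cdh7, Dsel and 9330185C12Rik start at 109982431, 111858702 and 113891385. Over the 930 tested genes of chromosome 1 the median was -0.60 on the log2 scale.

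Markers of stratified epithelium, a tissue known for Serpinb3a, Serpinb5 and Serpinb7, also differed. Of 11 tested markers 8 rose, 2 fell and 1 did not pass (background 35.2% higher, 38.3% lower). Their summed scaled counts, mostly Perp in the clones, were 18251 to 22046 in clones and 3094 to 4789 in controls. Perp alone measured 12256 to 14106 in clones and 935 to 1730 in controls. Krt6a measured 3054 to 4321 in clones and 0 in all controls, while Krt17 was at 0 in all clones and at 191 to 851 in controls. Their part in the serpin results was not tested.

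Serpinb6a and Serpinb6c, neighbours at the right end of the chromosome 13 cluster, moved in opposite directions. Serpinb6a (ENSMUSG00000060147.15, positions 33917918 to 34002794, minus strand) encodes a broadly made intracellular inhibitor of trypsin-like proteases and cathepsin G. It was the most abundant serpin in scaled counts in the clones, at 6214, 6002 and 6080 in clones 5, 6 and 7, against 2516, 2145 and 2344 in controls 1, 2 and 3. Each group was tight and the groups were far apart (ratio 2.61, log2 fold change 1.39 ± 0.10, limma adjusted p = 2.64e-06). Serpinb6c (ENSMUSG00000052180.14, positions 33879816 to 33905708, minus strand), a close relative found in rodents, had no read in clones 5, 6 and 7, against 157, 170 and 175 in controls 1, 2 and 3. The clones were at least 56.8-fold lower against the floor of 3 reads per library (limma adjusted p = 9.19e-08).

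Overlap with other genes bears on Serpinb6a and less on Serpinb6c. Of the 50-base words of Serpinb6a, 25.1% occur in another gene, chiefly Nqo2, 1110046J04Rik and Ripk1, which lie within or across it on the opposite strand. No source used here says whether counting used strand, so reads from these exons may belong to either gene. Ripk1, a kinase of cell death signalling, averaged 897 ± 53.8 in clones and 116 ± 21.6 in controls, and Nqo2 averaged 1155 ± 59.7 in clones and 876 ± 97.6 in controls. Serpinb6c shares 9.92% of its words, most of all with Serpinb6b.

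The promoters of the pair are printed because the genes lie side by side and parted. The stretches are the 70 bases before each start, at chr13:34002795-34002864 for Serpinb6a and chr13:33905192-33905261 for Serpinb6c, both on the minus strand, with no motif marked.
Serpinb6a: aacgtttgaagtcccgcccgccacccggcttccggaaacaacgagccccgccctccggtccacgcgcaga
Serpinb6c: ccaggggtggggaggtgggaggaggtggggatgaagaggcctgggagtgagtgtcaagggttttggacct
The windows differed in composition. That of Serpinb6a at this start held 25 CpGs and that of Serpinb6c 10, against a median of 7 over all windows. A further Serpinb6a window, at another start, held 5. In the best alignment of a Serpinb6a window with that of Serpinb6c, 53.3% of 300 bases were identical. That alignment need not be at the printed start.

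Serpinb9, the intracellular inhibitor of granzyme B that shields cells from cytotoxic granules, also rose. It lies on chromosome 13 at 33003250 to 33017957 (ENSMUSG00000045827.10, plus strand). Its values were 249, 235 and 238 in clones 5, 6 and 7, against 54.0, 45.4 and 82.4 in controls 1, 2 and 3. All clones were above all controls (ratio 3.97, log2 fold change 2.02 ± 0.25, limma adjusted p = 8.25e-05). Only 0.378% of its words occur in another gene, Serpinb9b.

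Serpinb9b and the array from Serpinb9c to Serpinb9g were high in 1 control library. These are rodent-specific relatives of Serpinb9, and members of this branch are known from mouse placenta. Serpinb9b measured 308, 262 and 336 in clones 5, 6 and 7, against 92.8, 82.1 and 440 in controls 1, 2 and 3. The clones lay between controls 1 and 2 on the low side and control 3 on the high side, and the gene did not pass (log2 fold change 0.998 ± 0.557, limma adjusted p = 0.135). Without control 3 it rose (log2 fold change 1.77, limma adjusted p = 0.000124). Serpinb9e had 0.995, 3.08 and 3.69 in the clones, against 8.52, 6.48 and 223 in the controls. Control 3 was 26.2-fold above the next control, and the lower call (log2 fold change -2.90 ± 1.15, limma adjusted p = 0.0466) is fragile. Without control 3 the mean fell under the limit for testing, and without any of clones 5, 6 and 7 or control 1 the call was lost (limma adjusted p = 0.051 to 0.113). Serpinb9c had no read in any clone or in controls 1 and 2, and 34.1 in control 3.

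Control 3 was also the high library for its neighbours. Serpinb9d had 0, 0 and 0.923 in the clones, against 0, 0 and 50.2 in the controls. Serpinb9f had 0, 0 and 1.85 in the clones, against 0, 0 and 54.2 in the controls. Serpinb9g had 0, 0 and 2.77 in the clones, against 2.84, 1.08 and 48.2 in the controls. In each of these control 3 stood above the other 5 libraries. Their sequences are close, with 78.7% of the words of Serpinb9f, 54.8% of Serpinb9g, 30.8% of Serpinb9d and 28.4% of Serpinb9e found in another gene, so how the reads divide within the array is uncertain.

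Serpinb6b, nearer the left end of the cluster, belongs to the same pattern. It measured 11.9, 8.22 and 9.23 in clones 5, 6 and 7, against 28.4, 12.96 and 99.4 in controls 1, 2 and 3. Its lower call (log2 fold change -1.69 ± 0.63, limma adjusted p = 0.0369) did not hold without control 3 (log2 fold change -0.92, limma adjusted p = 0.0654), nor without any of clones 5, 6 and 7 or control 1 (limma adjusted p = 0.0521 to 0.0868). In all, 7 of 32 members were at least 3-fold higher in control 3 than in both other controls, all on chromosome 13. The same held for 0.982% of all tested genes and for 3 tested members, of which Serpinb9e passed the limit for testing only through control 3, so nothing is read from the members' share. This comparison was chosen after seeing the data.

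**Figure D3:**
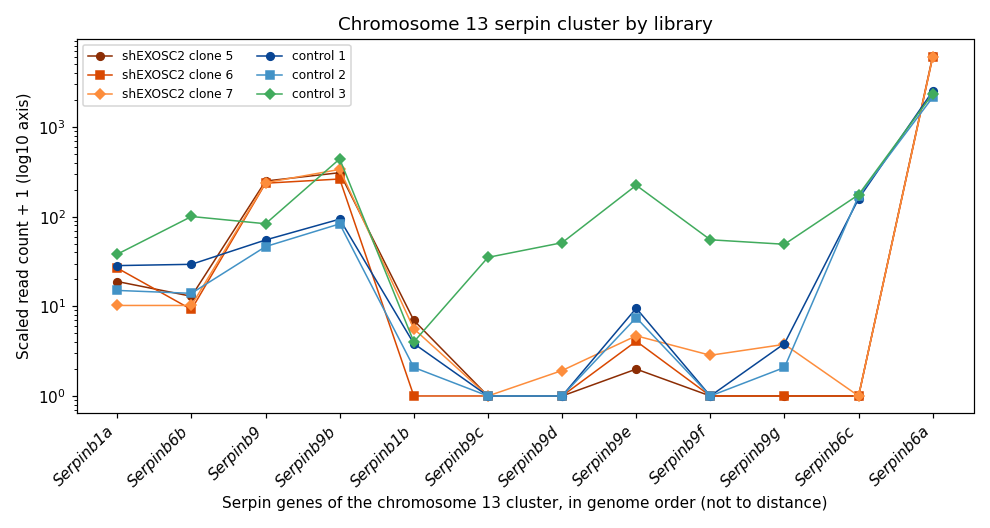
Scaled count + 1 (y axis, log10) of the 12 serpin genes of the chromosome 13 cluster in genome order (x axis, not to distance), 1 line per library. Control 3 is the highest library from Serpinb9b to Serpinb9g except at Serpinb1b, clones are higher at Serpinb9 and Serpinb6a, and at Serpinb6c the clones are at 0 and the controls at 157 to 175.

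The promoters of this array are printed because its genes stood out together in control 3. Each stretch is 70 bases ending 5 to 28 bases before the start (RefSeq, GRCm38.p6), and the capitals mark TGACGT, the core of the cyclic AMP response element.
Serpinb9c: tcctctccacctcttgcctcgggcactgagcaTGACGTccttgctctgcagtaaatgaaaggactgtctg
Serpinb9d: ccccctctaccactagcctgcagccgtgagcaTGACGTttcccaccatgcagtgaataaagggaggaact
Serpinb9e: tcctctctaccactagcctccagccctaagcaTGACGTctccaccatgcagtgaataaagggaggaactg
Serpinb9f: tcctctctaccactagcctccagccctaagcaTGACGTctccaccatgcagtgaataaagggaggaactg
Serpinb9g: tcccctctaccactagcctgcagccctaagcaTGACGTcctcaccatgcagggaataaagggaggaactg
The stretches lie at chr13:33159759-33159828 for Serpinb9c (minus strand), chr13:33192872-33192941 for Serpinb9d, chr13:33249526-33249595 for Serpinb9e, chr13:33323980-33324049 for Serpinb9f and chr13:33484704-33484773 for Serpinb9g (plus strand).

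For contrast, Serpinb9 (chr13:33004451-33004520) and Serpinb9b (chr13:33027324-33027393), both on the plus strand, had no TGACGT in their windows.
Serpinb9: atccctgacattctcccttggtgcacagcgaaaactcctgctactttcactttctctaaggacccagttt
Serpinb9b: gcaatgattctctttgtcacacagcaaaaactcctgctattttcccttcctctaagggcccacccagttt
TGACGT on either strand occurred in 5 of 27 members with a window, Serpinb9c to Serpinb9g and no other, and in 8.37% of all 27025 genes with a window. The windows of Serpinb9d, 9e, 9f and 9g are 87.0% to 94.7% identical, so their matches are not separate observations. The windows of Serpinb9 and Serpinb9b are 62.3% identical. Serpinb9b, high in control 3 without the motif, and Serpinb9 differ from the array in this stretch.

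Some trophoblast markers were also highest in control 3 and others were not. Of 13 trophoblast markers in the table, 7 were at least 3-fold higher in control 3 than in both other controls. They were Elf5, Gata3, Hand1, Prl3d1, Prl2c2, Plac1 and Psg17. The same held for 0.982% of all tested genes. Elf5 and Prl3d1 were not tested and Plac1 passed the limit for testing only through control 3, so nothing is read from this share. Plac1 measured 6.63, 3.24 and 274 in controls 1, 2 and 3, Hand1 71.0, 100.4 and 476, and Prl3d1 0, 0 and 43.2. Eomes, Ascl2 and Gcm1 were lowest in control 3 among the controls, with Eomes at 456, 441 and 313. Between the groups, 3 of 10 tested markers were higher in clones (Gata3, Krt8 and Psg17), 6 were lower and 1 did not pass. The background was 35.2% higher and 38.3% lower. In the clones Plac1 and Prl3d1 were at or below 1.03, and Cdx2 and Gcm1 were at 0. The summed scaled counts of the list, mostly Krt8, were 7116 to 9582 in clones and 5013, 6387 and 8812 in controls 1, 2 and 3. Their part in the serpin results was not tested.

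The other members of the chromosome 13 cluster were low. Serpinb1a, a counterpart of the human inhibitor of neutrophil elastase, averaged 17.6 ± 8.23 in clones and 26.2 ± 11.6 in controls and did not pass (limma adjusted p = 0.303). Serpinb1b averaged 3.53 ± 3.13 in clones and 2.31 ± 1.07 in controls and was not tested. The flanking genes differed in direction. Foxc1, a forkhead transcription factor, rose to 343 ± 12.8 in clones against 23.8 ± 10.7 in controls, and Tubb2b, a neural beta tubulin, fell to 352 ± 48.0 in clones against 2971 ± 623 in controls. Gmds, Wrnip1, Bphl and Tubb2a, the other 4 flanking genes, did not pass.

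Serpine2, a secreted inhibitor, varied within both groups. The gene (ENSMUSG00000026249.10, chromosome 1, positions 79794197 to 79861180, minus strand) encodes protease nexin 1, an inhibitor of thrombin and urokinase bound to heparan sulfate in matrix. It measured 1317, 887 and 1520 in clones 5, 6 and 7, against 1446, 1134 and 2718 in controls 1, 2 and 3. Clone 6 was the lowest and control 3 the highest library, and the difference did not pass (log2 fold change -0.44 ± 0.32, limma adjusted p = 0.234). Its sign turned when each chromosome was centred (0.14). Serpine3, a little-studied relative on chromosome 14, had 28.8, 32.9 and 40.6 in the clones, against 0, 1.08 and 0 in the controls. With 1 control read, the ratio of means was 94.7 with an exact 95% Poisson interval of 17.0 to 3742, which covers counting error only (limma adjusted p = 6.83e-06). Ints6 lies across Serpine3 on the opposite strand and shares 15.7% of its words.

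Parts of the order of libraries seen for Serpine2 were also seen in other members. Control 3 was the highest control for 13 of 22 tested members (59.1%), against 40.1% of all tested genes. Serpinb5, Serpinb9e and Serpina3n, highest in control 3, passed the limit for testing only through it, so nothing is read from that share. Clone 6 was the lowest clone for 13 of 22 (59.1%), against 30.8% of all tested genes. Serpine2 is itself among these 13, and clustered relatives are not separate observations, so nothing is read from this share either. Without control 3, 19 members could be tested, of which 9 rose (47.4%, background 37.1%) and 2 fell (10.5%, background 38.7%). The 9 include the 7 named as higher with all libraries and Serpinb9b, and the 2 are Serpinb6c and Serpini1. Serpinb5, Serpinb9e and Serpina3n then had means under 10. The first 2 had been called lower with all libraries, so nothing is read from the shares without control 3.

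**Figure D4:**
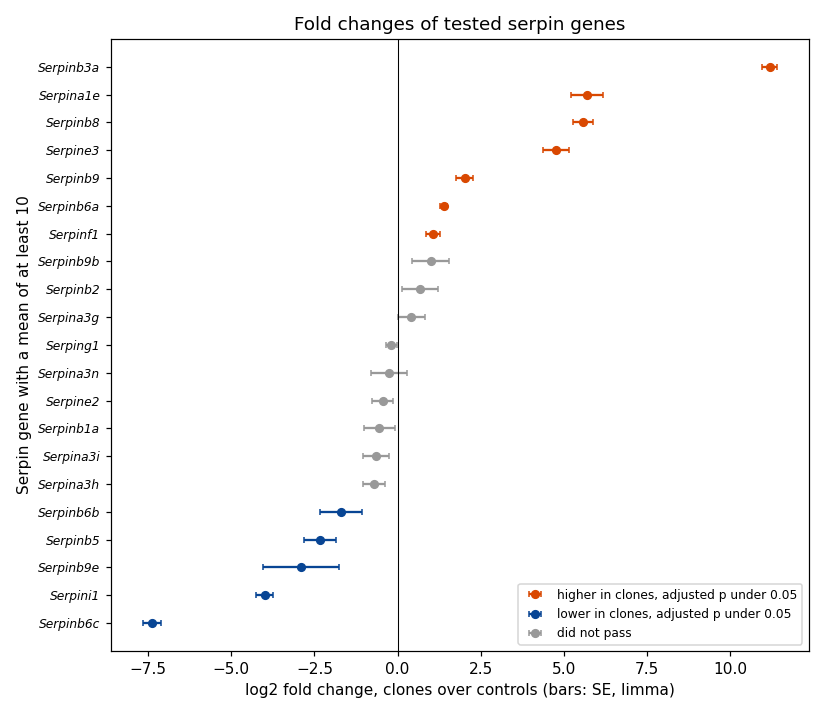
Log2 fold change of tested serpin genes, clones over controls (x axis, bars are SE from limma), ordered by size (y axis). The 7 genes in orange were higher and the 5 in blue lower at an adjusted p under 0.05, and the SE is widest for Serpinb9e (1.15) and Serpinb6b (0.63).

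Serpinf1 and Serpini1 were the called members among the other secreted serpins of clades F, G and I. Serpinf1 (ENSMUSG00000000753.15, chromosome 11, positions 75409769 to 75422701, minus strand) encodes pigment epithelium-derived factor, a non-inhibitory serpin known for restraining blood vessel growth. It rose to 895, 632 and 1037 in clones 5, 6 and 7, against 448, 325 and 437 in controls 1, 2 and 3, with no overlap and clone 6 the lowest clone (ratio 2.12, log2 fold change 1.07 ± 0.21, limma adjusted p = 0.00159). Fibroblasts are a known source of this factor. Of 13 tested fibroblast markers 12 rose (background 35.2%) and Thy1 fell (background 38.3%). Their sums were 55339 to 72187 in clones and 10814 to 11910 in controls. Their part in the Serpinf1 result was not tested.

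Serpini1 (ENSMUSG00000027834.15, chromosome 3, positions 75557547 to 75643495, plus strand) encodes neuroserpin, an inhibitor of tissue plasminogen activator made mainly by neurons. It fell to 13.9, 17.5 and 10.1 in clones 5, 6 and 7, against 244, 210 and 240 in controls 1, 2 and 3. The clones held 0.0599 of the control mean (log2 fold change -3.99 ± 0.26, limma adjusted p = 1.64e-06). Of 10 tested neural markers 3 rose, 6 fell and 1 did not pass (background 35.2% higher, 38.3% lower). Their sums were 10099 to 10275 in clones and 5516 to 6221 in controls. Tubb3, Map2 and Nes rose, averaging 1611, 1563.5 and 5084 in clones against 743, 648 and 962 in controls. Among the markers that fell, Pax6, Sox1 and Elavl3 were at 0 in all clones. Their part in this result was not tested. Serping1, the inhibitor of the first complement component, measured 193, 193 and 211 in the clones, against 223, 207 and 250 in the controls. The ranges overlapped and it did not pass (log2 fold change -0.18 ± 0.16, limma adjusted p = 0.328).

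Clade A members, in humans mainly plasma proteins of the liver, were low in every library. Serpina1e, a mouse copy of alpha-1 antitrypsin, the main plasma inhibitor of neutrophil elastase, had 70.6, 101.7 and 54.4 in clones 5, 6 and 7, against 1.89, 0 and 0 in controls 1, 2 and 3. With 2 control reads, the ratio of means was 120 with an exact 95% Poisson interval of 33.1 to 989 (limma adjusted p = 7.89e-06). Of its words 34.6% occur in another gene, most of all its copies Serpina1d, Serpina1c and Serpina1a, so part of these reads could come from a copy. None of these copies is itself in the table. Of the 8 hepatocyte and visceral endoderm markers in the table, the 3 tested fell (background 38.3%) and 5 were too low to test. Among these, Afp had 3.98, 8.22 and 5.54 in the clones and no read in the controls. The sums of the list were 37.8 to 47.3 in clones and 280 to 335 in controls, and Fgg, Hnf4a and Ahsg were at 0 in all clones. Their part in the Serpina1e result was not tested.

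The Serpina3 copies, relatives of antichymotrypsin on chromosome 12, did not pass. Serpina3g averaged 85.0 ± 15.7 in clones and 70.5 ± 40.6 in controls. Serpina3h averaged 80.3 ± 32.6 in clones and 124 ± 19.4 in controls (limma adjusted p = 0.0882), Serpina3i 47.3 ± 20.3 in clones and 71.0 ± 20.6 in controls, and Serpina3n 8.17 ± 1.54 in clones and 12.3 ± 10.4 in controls. Control 1 was the highest library for Serpina3g, Serpina3h and Serpina3i, and control 3 for Serpina3n. The lowest library was clone 6 for Serpina3h and Serpina3i, control 3 for Serpina3g and control 2 for Serpina3n. Between 6.90% and 21.9% of their words occur in other genes.

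A pair of clade A genes below the limit for testing had no read in any clone. Serpina3m, whose annotation overlaps Serpina3k on the same strand, had 18.9, 12.96 and 4.02 in controls 1, 2 and 3, at least 4.07-fold lower in the clones. Serpina7, thyroxine-binding globulin, on the X chromosome, had 13.3, 3.24 and 13.1 in the controls, at least 3.35-fold lower in the clones. Serpinc1, antithrombin, the single clade C member, averaged 2.97 ± 1.07 in clones and 2.25 ± 2.38 in controls, near the floor.

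Genes flanking the 6 clade A members on chromosome 12 were mostly lower in the clones. Ppp4r4 fell to 1.96 ± 0.11 in clones against 86.5 ± 12.7 in controls, Clmn fell to 15.3 ± 3.50 in clones against 461 ± 99.4 in controls, and Dicer1, the microRNA-processing nuclease, fell to 2534 ± 129 in clones against 3515 ± 330 in controls. Ifi27 rose to 2041 ± 613 in clones against 936 ± 474 in controls (limma adjusted p = 0.0242), and Ifi27l2a and Gsc were not tested. The median log2 fold change on chromosome 12 was 0.00.

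Levels between genes can be set side by side only per length, here as scaled counts per kilobase of annotated exon. All annotated exons were counted, 5409 bases for Serpinb6a, 8287 for Serpine2, 4795 for Serpinb8, 2359 for Serpinf1 and 1631 for Serpinb3a. A single transcript can be shorter, so the order depends on this choice of length. In clones the order among the genes described here was Serpinb3a at 1435, Serpinb6a at 1128, Serpinb8 at 420, Serpinf1 at 362 and Serpine2 at 150. In controls it was Serpinb6a at 432, Serpine2 at 213, Serpinf1 at 171 and Serpinb6c at 120, with Serpinb8 at 9.28 and Serpinb3a at 0.

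The plasminogen and clotting genes, a list of proteases, receptors and cofactors that are only in part serpin targets, were mostly higher in the clones. Of 31 genes listed, 20 were in the table and 17 were tested. Of these 11 rose, 3 fell and 3 did not pass. Over all tested genes 35.2% rose and 38.3% fell. The median of the listed genes' log2 fold changes was 1.25, against -0.07 over all tested genes. Plaur, the urokinase receptor, rose to 4197, 4996 and 5698 in clones 5, 6 and 7, against 207, 305 and 433 in controls 1, 2 and 3 (log2 fold change 4.03 ± 0.25, limma adjusted p = 1.20e-06). Lrp1, the receptor that clears serpin complexes with proteases, rose to 19300 ± 1698 in clones against 2382 ± 932 in controls, and S100a10, a plasminogen receptor subunit, to 11815 ± 502 in clones against 1749 ± 147 in controls. Hgfac, the activator of hepatocyte growth factor, averaged 380 ± 75.3 in clones against 0.676 ± 0.589 in controls, where it had 2 reads (ratio 563, exact 95% Poisson interval 156 to 4648).

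The 3 that fell in this list were receptors and cofactors of clotting. F2rl1, a receptor cut by trypsin-like proteases, fell to 174 ± 36.9 in clones against 1442 ± 445 in controls. F3, tissue factor, fell to 64.9 ± 23.7 in clones against 295 ± 49.1 in controls, and F5 to 33.7 ± 10.4 in clones against 93.4 ± 54.0 in controls (limma adjusted p = 0.0181). The plasminogen activators themselves are added here after their values were seen. Plau, urokinase, rose to 673, 814 and 636 in clones 5, 6 and 7, against 117, 112 and 163 in controls 1, 2 and 3 (log2 fold change 2.44 ± 0.19, limma adjusted p = 5.28e-06). Plat, tissue plasminogen activator, did not pass, at 160 ± 21.04 in clones and 152 ± 60.8 in controls.

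Lysosomal and granule proteases, only some of which are targets of intracellular serpins, went both ways. Of 32 listed, 15 were tested. Of these 8 rose, 5 fell and 2 did not pass, against the same background of 35.2% higher and 38.3% lower. Their median was 0.77 on the log2 scale. The lysosomal cathepsins Ctsl, Ctsd, Ctsf and Ctsz rose. Ctsl, a cysteine protease, averaged 27050 ± 1388 in clones and 8333 ± 1235 in controls, and Ctsd, an aspartic protease, 27115 ± 3522 in clones and 8557 ± 2320 in controls. Among those that fell, Ctsc, which activates granule proteases, averaged 106 ± 14.5 in clones and 570 ± 32.6 in controls, and Lgmn, the asparaginyl endopeptidase, 1291 ± 83.5 in clones and 1847 ± 184 in controls. Ctsw and the neutrophil granule protease Prtn3 fell to 5 and 4 reads over the clones against 94 and 111 reads over the controls.

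Membrane-anchored and secreted serine proteases showed the widest spread. Of 51 listed, 34 were tested. Of these 19 rose, 14 fell and 1 did not pass, and 73.5% of all tested genes were called. Their median was 1.92 on the log2 scale. Klk10, a kallikrein-related peptidase of epithelia, rose to 8300, 8170 and 11329 in clones 5, 6 and 7, against 119, 123 and 131 in controls 1, 2 and 3. C1ra, a complement protease inhibited by Serping1, rose to 3713, 4237 and 3588 in the clones, against 19.9, 18.4 and 24.1 in the controls (log2 fold change 7.47 ± 0.17, limma adjusted p = 1.57e-08), while Serping1 did not pass. Htra1 rose to 6953 ± 211 in clones against 424 ± 118 in controls, and Prss23 to 3505 ± 582 in clones against 387 ± 56.6 in controls.

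The proteases that fell included a pair that act together at epithelial surfaces. St14, matriptase, fell to 51.1 ± 22.8 in clones against 2462 ± 520 in controls, and Prss8, prostasin, to 1.93 ± 0.87 in clones against 364 ± 72.9 in controls. Prss50 had no read in the clones and 96.7 ± 35.3 in the controls, at least 32.8-fold lower. Dpp4, a dipeptidyl peptidase, had 2 reads over the clones against 541 over the controls (ratio of control to clone means 273, exact 95% Poisson interval 75.6 to 2256).

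Protease inhibitors outside the serpin family were called about as often as other genes. Of 66 listed, 32 were tested. Of these 12 rose, 12 fell and 8 did not pass, close to the 35.2% higher and 38.3% lower of all tested genes. Their median was 0.16 on the log2 scale. Timp1, an inhibitor of metalloproteinases, rose to 10886 ± 749 in clones against 1344 ± 62.6 in controls, and Fetub, fetuin B, to 2451 ± 53.6 in clones against 176 ± 23.1 in controls. Stfa3, a stefin that inhibits cysteine cathepsins, and Wfdc5 had no read in controls and averaged 143 ± 34.6 and 194 ± 33.8 in clones, at least 47.2-fold and 64.1-fold higher. Spint1 and Spint2, the membrane inhibitors of matriptase, fell with it, to 384 ± 54.4 in clones against 1260 ± 376 in controls and to 1205 ± 164 in clones against 3542 ± 381 in controls. Wfdc2 fell to 63.4 ± 4.56 in clones against 1303 ± 404 in controls, and Aplp2, which carries a Kunitz inhibitor domain, to 4649 ± 293 in clones against 9857 ± 487 in controls.

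**Figure D5:**
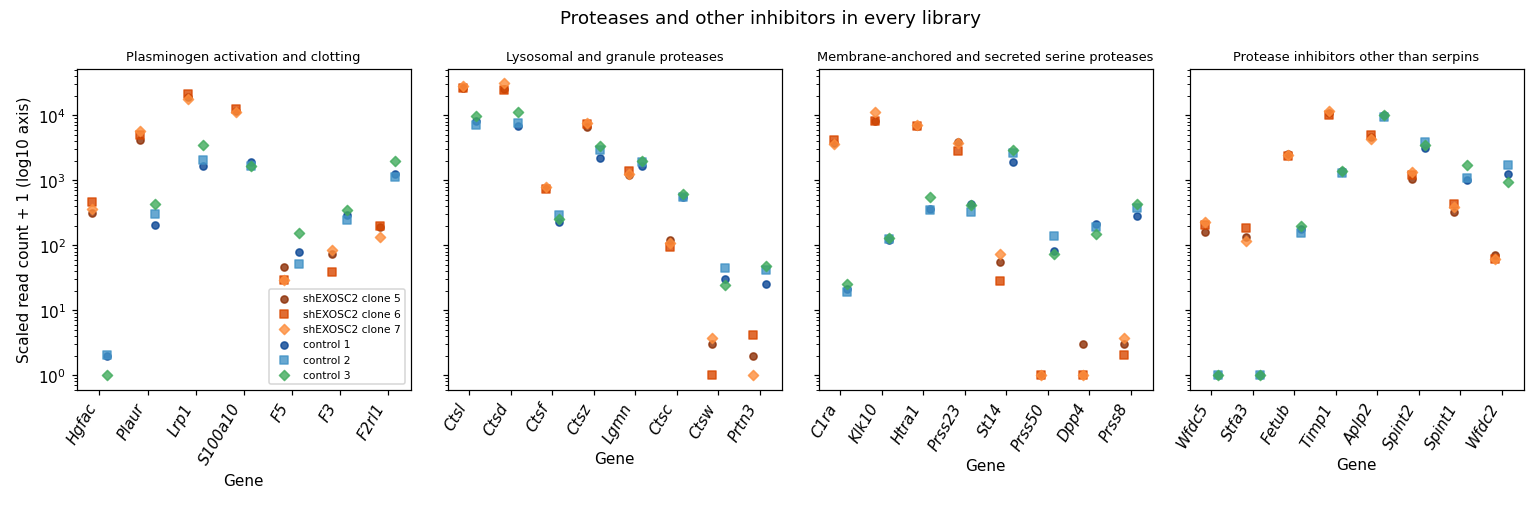
Scaled count + 1 (y axis, log10) of the genes named from 4 lists (x axis), with clones as warm points on the left of each gene and controls as cool points on the right. The genes plotted were called genes with the smallest p per list and direction, so the gap between the 2 groups follows from this choice. Clones are above controls at the left of each panel and below them at the right.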

How the data were processed

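TruSeq Stranded mRNA libraries were prepared from 500 ng of RNA after poly(A) selection, with 8 PCR cycles, per the labels' protocols. The submitters' processing notes name mm10 and, without settings, DESeq 1.22.1, HTSeq 0.5.3, STAR 2.5.0a and cutadapt 1.6. The deposited values are a signal per gene, read counts scaled by DESeq per the file headers. Every value was a whole multiple of a step per library within 0.001 read, so whole reads were recovered. No gene had fewer than 15 reads over the 6 libraries.

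Of 17912 genes, 17860 matched GENCODE M21 by identifier, among them all 32 members. Replicates differed by more than sampling noise (chi-square per degree of freedom of 11.4 to 14.5 for clone pairs and 33.6 to 57.4 for control pairs). The main test was limma 3.58.1 (lmFit, eBayes with trend) on log2(scaled count + 1) in genes averaging at least 10, adjusted over all 15179 genes at a threshold of 0.05. The test was checked on simulated counts. Folds against 0 use a floor of 3 reads per library, and groups with 1 to 3 reads carry an exact 95% Poisson interval. Both cover counting error only, as reads carry no molecular identifiers.

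Alternatives were DESeq2 1.42.0 and edgeR 4.0.16 on the recovered reads, TMM scaling, eBayes without trend, a filter at 50 or none, pseudocounts of 0.5 and 5, leaving out each library, and chromosome centring, which removes from every library its median shift per chromosome relative to the controls. Shared sequence was counted as 50-base words found in transcripts of another gene. Called members, members averaging at least 1000 in a group, 4 genes per list and direction with the smallest p, and 3 flanking genes per side of clusters with gaps up to 500 kb were described. The members, lists and rules were chosen with earlier results of these data known. R 4.3.3, Python 3.11.15, pandas 2.3.3 and Biopython 1.88 were used. The values of 1 gene of the family are not reported here.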

Additional observations from a re-analysis of the deposited data

How the results depend on the processing

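Among the 22 tested members, 300 of 319 log2 fold changes under an alternative kept their direction and their side of the threshold, 14 no longer passed, 3 newly passed and 2 reversed. The count of members called higher stayed at 7 under TMM scaling, both pseudocounts, eBayes without trend, edgeR, DESeq2 and chromosome centring. It was 5 at a mean of at least 50 and 9 without a filter. The count called lower was 5 with edgeR and 4 with DESeq2, but 2 at a mean of at least 50, 3 with eBayes without trend and 3 with chromosome centring, and Serpinb6b and Serpinb9e were the calls lost under both of the last 2 settings. At a mean of at least 50 fewer genes were tested. Leaving out each library gave 7 to 9 higher and 2 to 6 lower members. The lower count was 3 without clone 5, clone 6 or control 1 and 2 without control 3. Over the same fits there were 55 to 61 called proteases over the 3 lists (60 with all libraries), 24 to 25 called genes in the list of other inhibitors (24) and 10216 to 11379 called genes in all (11158). The other inhibitors called numbered 15 at a mean of at least 50. Leaving out each library gave Serpina3g -0.03 (without control 3, a reversal) to 0.84 and Wrnip1 -0.24 to 0.00 (without control 1, a reversal). Chromosome centring reversed Serpine2 to 0.14 and the flanking genes Vps4b to 0.46, Wrnip1 to 0.14 and Tubb2a to 0.05. None of these 5 passed the main test, and the cause was not tested. No paired analysis was possible because controls are numbered 1 to 3 and clones 5 to 7, so the groups share no replicate number. Depth limits the 10 untested members, whose group means are near the floor of 3 reads per library in 1 or both groups.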
